A study of Homo sapiens with 12 samples.

Results

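The ATP-binding cassette (ABC) genes of subfamilies A to G were examined in RPMI2650, a human epithelial line established from a carcinoma of the nasal septum and kept here at an air-liquid interface. Members were the rows of the gene table with a symbol of the form ABC, a letter from A to G and a number, leaving out rows described as pseudogenes. This gave 45 genes of 50868 in the table, after 1 pseudogene was left out. Of these 45, 28 had enough counts to be tested, and 16554 genes in all were tested. Libraries of bulk RNA were compared in 3 groups of 4: cells given 1 µM PFHxA (perfluorohexanoic acid) for 7 days, cells given 1 µM PFBA (perfluorobutanoic acid) for 7 days, and control cells. Each acid is a short perfluorinated carboxylic acid, and the carbon chain of PFHxA is the longer. All 12 libraries carry the genotype label Wild Type. No dose, culture time or vehicle is recorded for the controls. Separate cultures behind the 4 libraries of a group are not stated in the labels, so p-values measure only the spread between these samples, which may be technical. A tumour line is a limited model of nasal mucosa. In bulk RNA, fewer cells of a type and less RNA per cell cannot be told apart.

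ABC proteins bind and hydrolyse ATP through paired nucleotide-binding domains. Most members of subfamilies A, B, C, D and G use that energy to move substrates across membranes. Lipids are the main cargo in subfamily A, and drugs, conjugates and organic anions are the best known cargo of subfamily C and of ABCB1 and ABCG2. Several members of subfamily B lie in mitochondria, while subfamily D serves peroxisomes and lysosomes. ABCE1 and the ABCF proteins have no membrane-spanning domain and act on ribosomes and translation. Efflux members are studied in airway epithelium because they carry inhaled drugs and foreign compounds out of cells.

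The promoters of 5 members are printed to set members that were called after PFHxA, ABCD3, ABCE1, ABCC5 and ABCD4, beside ABCG5, which had no count in any library. Each is the RefSeq sequence of GRCh38.p14 from 250 bases before to 50 bases after the annotated start, 5′ to 3′ on the gene's strand, with every CG dinucleotide in capitals. ABCD3 lies at chr1:94418139-94418438 on the plus strand, ABCE1 at chr4:145098061-145098360 on the plus strand, ABCC5 at chr3:184017835-184018134 on the minus strand, ABCD4 at chr14:74302885-74303184 on the minus strand and ABCG5 at chr2:43838790-43839089 on the minus strand.
ABCD3: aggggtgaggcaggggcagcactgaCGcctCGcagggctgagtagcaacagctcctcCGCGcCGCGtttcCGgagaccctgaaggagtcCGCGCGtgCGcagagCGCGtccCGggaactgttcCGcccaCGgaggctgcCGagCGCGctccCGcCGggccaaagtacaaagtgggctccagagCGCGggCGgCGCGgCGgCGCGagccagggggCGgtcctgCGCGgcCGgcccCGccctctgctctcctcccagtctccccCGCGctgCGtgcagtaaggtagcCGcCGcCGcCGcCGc
ABCE1: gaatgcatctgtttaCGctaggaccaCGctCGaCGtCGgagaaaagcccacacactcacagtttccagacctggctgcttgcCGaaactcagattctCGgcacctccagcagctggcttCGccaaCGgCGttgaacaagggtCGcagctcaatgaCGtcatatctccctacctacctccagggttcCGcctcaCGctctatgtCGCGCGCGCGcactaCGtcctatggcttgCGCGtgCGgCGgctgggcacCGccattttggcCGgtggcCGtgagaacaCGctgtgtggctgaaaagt
ABCC5: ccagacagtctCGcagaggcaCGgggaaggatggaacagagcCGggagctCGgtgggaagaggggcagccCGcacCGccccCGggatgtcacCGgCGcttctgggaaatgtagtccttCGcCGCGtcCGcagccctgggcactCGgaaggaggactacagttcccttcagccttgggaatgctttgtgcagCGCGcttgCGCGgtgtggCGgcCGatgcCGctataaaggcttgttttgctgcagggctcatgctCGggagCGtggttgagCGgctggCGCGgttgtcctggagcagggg
ABCD4: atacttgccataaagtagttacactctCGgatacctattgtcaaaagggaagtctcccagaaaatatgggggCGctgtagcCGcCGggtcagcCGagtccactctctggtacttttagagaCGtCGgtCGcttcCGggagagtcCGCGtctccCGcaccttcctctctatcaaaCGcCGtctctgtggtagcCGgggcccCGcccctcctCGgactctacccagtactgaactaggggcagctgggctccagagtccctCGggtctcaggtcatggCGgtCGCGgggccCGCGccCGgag
ABCG5: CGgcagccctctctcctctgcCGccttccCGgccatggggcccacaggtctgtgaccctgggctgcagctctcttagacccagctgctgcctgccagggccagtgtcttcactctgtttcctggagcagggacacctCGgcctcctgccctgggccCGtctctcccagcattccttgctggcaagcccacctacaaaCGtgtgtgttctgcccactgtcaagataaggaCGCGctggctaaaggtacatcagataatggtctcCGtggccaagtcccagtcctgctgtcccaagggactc
The motif counted was CG, which reads the same on both strands. It occurred 42 times in the ABCD3 promoter, 28 times in that of ABCE1, 26 times in that of ABCC5, 24 times in that of ABCD4 and 9 times in that of ABCG5. Promoters were found in the RefSeq table for 35 of the 45 members, as 53 promoters. Where a gene had several promoters their CG counts were averaged. The median of these averages was 27.5 in the 22 tested members (range 3 to 47), against 4 in the 13 members that were not tested (range 1 to 27), and 14 over all 27305 genes of the table. The average was at least 10 in 21 of the 22 tested members and in 2 of the 13 others, against 57.4% of all genes. These counts describe the letters of the window and say nothing of its use.

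Total counts ran from 18051645 to 20405688 with PFHxA, from 18411985 to 21879105 with PFBA and from 16941599 to 21508681 in control. The spread between replicates, as a biological coefficient of variation over all tested genes, was 0.127. Epithelial markers summed to 2792 to 2999 CPM (counts per 1000000 counts of the library) with PFHxA, 2545 to 2663 CPM with PFBA and 2749 to 2788 CPM in control, and none of the 7 was at 0. KRT5 held most of this sum, with group means of 1812 to 2046 CPM. Group means were only 1.73 to 1.90 CPM for TP63 and 8.46 to 10.95 CPM for CDH1. EPCAM, KRT8, KRT18 and KRT19 lay between CDH1 and KRT5. Markers of secretory and ciliated airway cells summed to 11.5 to 12.5 CPM with PFHxA, 8.18 to 12.3 CPM with PFBA and 10.6 to 12.4 CPM in control, and SCGB1A1, which defines club cells, had no count. FOXJ1 was the largest of these markers, with group means of 7.76 to 8.35 CPM, and BPIFA1 had 1 count over the 12 libraries. Markers of other cell types summed to 5.03 to 7.76 CPM with PFHxA, 7.06 to 9.39 CPM with PFBA and 5.31 to 6.74 CPM in control. Of these, COL1A1 had group means of 2.12 to 2.66 CPM, above those of TP63. Libraries differed in how counts followed the GC content of genes: per 10 percentage points of GC, log2 counts shifted by 0.0706 to 0.104 in the PFHxA libraries, by -0.0650 to 0.00417 in the PFBA libraries and by -0.0661 to -0.0132 in the control libraries. The PFHxA range overlapped neither of the other ranges, and the log2 fold of each member named below as called with PFHxA is therefore also given after correction for GC content and length. Levels, CPM and sums are not corrected. Control d stood further from the other controls (chi-square per degree of freedom 16.6 to 21.4) than any other pair of replicates (9.86 to 13.96).

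Levels were compared between genes as CPM per kilobase of the longest annotated transcript. ABCD3, which imports fatty acyl-CoA into peroxisomes, and ABCA4, known as the retinal flippase that clears retinoid adducts from photoreceptor discs, had the highest levels of the family. ABCD3 averaged 54.6 ± 3.02 CPM per kilobase with PFHxA, 63.2 ± 0.907 with PFBA and 63.9 ± 1.61 in control (SD, n = 4 each). ABCA4 averaged 55.98 ± 2.91 CPM per kilobase with PFHxA, 50.8 ± 1.44 with PFBA and 46.9 ± 2.37 in control (SD, n = 4 each). Their order differed by group: ABCD3 exceeded ABCA4 in 0 of 4 PFHxA libraries, against 4 of 4 with PFBA and 4 of 4 in control. It also rests on the length used. Per kilobase of the union of annotated exons, a length added after the data were examined, ABCA4 (43.9 CPM per kilobase over the 12 libraries) stood above ABCD3 (34.8). Not corrected for length, ABCA4 took 23.98% ± 0.933 of the family's CPM with PFHxA, 22.4% ± 0.370 with PFBA and 21.3% ± 0.852 in control (SD, n = 4 each).

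The next places were held by genes of the translation machinery and by ABCC1. ABCE1, the ribosome recycling factor, averaged 33.9 CPM per kilobase over the 12 libraries, ABCF2 31.7, ABCF1, which binds initiation factor 2, 29.04, ABCC1 (MRP1), an exporter of glutathione conjugates, 20.6 and ABCF3 20.3. Neighbours in this order were not always apart. ABCE1 exceeded ABCF2 in 1 of 4 PFHxA libraries, against 4 of 4 with PFBA and 4 of 4 in control. Per kilobase of the union of annotated exons, ABCF2 (26.9 CPM per kilobase over the 12 libraries) and ABCF1 (22.4) stood above ABCE1 (21.2). ABCC1 exceeded ABCF3 in 3 of 4 PFHxA libraries, 4 of 4 PFBA libraries and 0 of 4 control libraries. Mitochondrial ABCB10, tied to haem synthesis, averaged 9.05 CPM per kilobase.

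In all, 20 members averaged at least 1 CPM per kilobase, and 11 of these averaged over 10. Below 1 CPM per kilobase lay well known efflux genes. ABCG2, the breast cancer resistance protein, averaged 0.262, ABCC3 (MRP3), which exports glucuronides, 0.591 and ABCA1, the cholesterol exporter that loads apolipoprotein A-I, 0.286 CPM per kilobase. ABCB1, which encodes P-glycoprotein, had 6 counts over all 12 libraries and was not tested. Of the 17 untested members, 6 (ABCA6, ABCA9, ABCB5, ABCC9, ABCG5 and ABCG8) had no count in any library, which allows up to 0.0128 CPM at 3 counts over the 12 libraries, for counting error only. The other 11 had at most 40 counts over the 12 libraries: ABCA12 40, ABCA13 and ABCC2 26 each, ABCB4 and ABCG1 22 each, ABCC6 11, ABCB1 6, ABCD2 5, ABCA8 3, ABCA10 2 and ABCC12 1. The smallest total among tested members was 101, for ABCB11, the bile salt export pump.

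**Figure D1:**
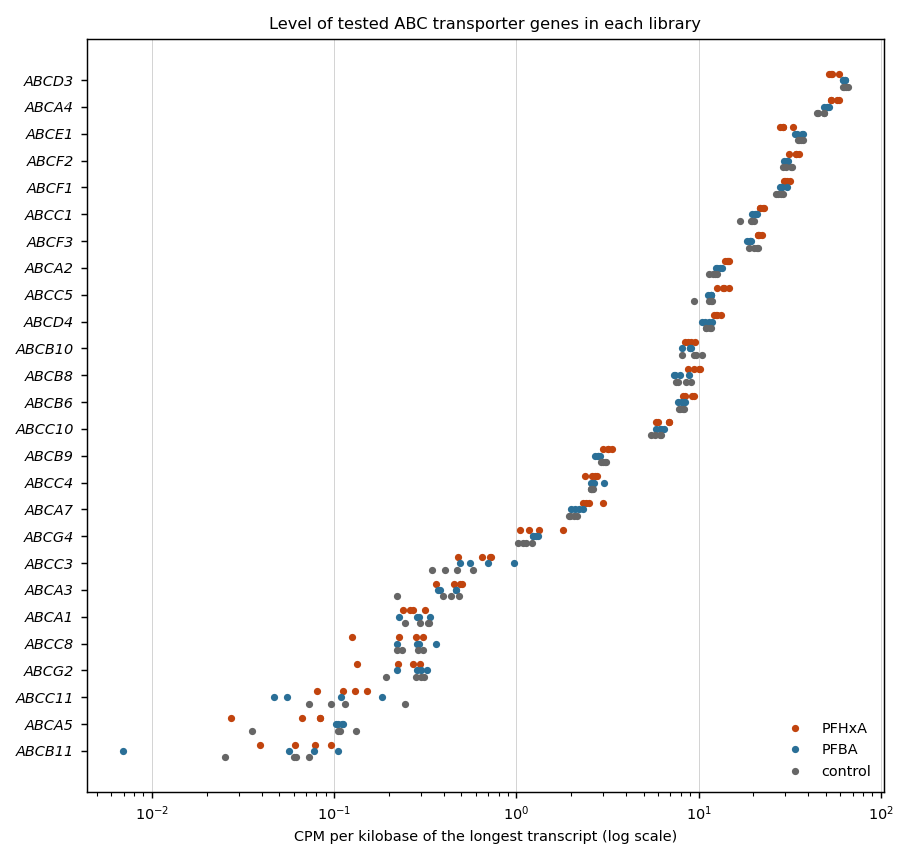
CPM per kilobase of the longest transcript (x axis, log scale) of 26 of the 28 tested ABC genes (y axis, ordered by their mean over 12 libraries); each point is 1 library, coloured for PFHxA, PFBA or control. Levels span from ABCD3, at a mean of 60.5 CPM per kilobase, to ABCB11, at 0.0619, and the points of many neighbouring genes overlap.

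By subfamily, tested members numbered 6 of 12 in A, 6 of 9 in B, 7 of 11 in C, 3 of 4 in D, 1 of 1 in E, 3 of 3 in F and 2 of 5 in G. Summed over its members, subfamily A had 550 ± 23.3 CPM with PFHxA, 499 ± 12.8 CPM with PFBA and 462 ± 16.1 CPM in control (SD, n = 4 each). Subfamily C had 282 ± 5.22 CPM with PFHxA, 258 ± 3.94 CPM with PFBA and 242 ± 15.3 CPM in control. Subfamily D had 290 ± 12.4 CPM with PFHxA, 323 ± 3.71 CPM with PFBA and 326 ± 7.19 CPM in control. These sums follow their most abundant genes, ABCA4, ABCC1 and ABCD3. Subfamily F had 287 ± 6.92 CPM with PFHxA, 263 ± 5.87 CPM with PFBA and 264 ± 10.3 CPM in control. Subfamily B had 173 ± 4.78 CPM with PFHxA, 169 ± 4.00 CPM with PFBA and 170.1 ± 2.86 CPM in control.

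After PFHxA, against control, lipid and efflux transporters ABCA2, ABCA4, ABCA7, ABCC1 and ABCC5 and the lysosomal transporter ABCD4 were higher, and peroxisomal ABCD3 and the ribosome recycling factor ABCE1 were lower. The changes were small, from 0.17 to 0.33 in size on the log2 scale. A gene was called where its p in edgeR's quasi-likelihood test, adjusted over all 16554 tested genes by Benjamini-Hochberg, was under 0.05. By that rule 8 of 28 tested members were called, 6 higher and 2 lower, beside 14.9% of all tested genes, 6.08% higher and 8.82% lower. The PFHxA and control libraries did not overlap for any of the 8, and they did not overlap for 10 of 28 tested members and for 20.7% of all tested genes. Over all tested genes, 2466 were called, and 1523 without PFHxA b. The median log2 fold of the 28 was 0.12, against -0.0039 over all tested genes. After correction for GC content and length, these medians were 0.035 and 0.0011. None of the 8 passed the threshold after correction for GC content and transcript length, as given below.

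Positions of genes are those of the deposited table, on GRCh38. Among the lipid transporters, ABCA4 (ENSG00000198691, chr1:93992835-94121132, minus strand) had 433, 391, 421 and 392 CPM with PFHxA, against 358, 330.5, 358 and 326 CPM in control. Every PFHxA library was above every control library (1.19-fold, log2 fold 0.25, SE 0.0471, adjusted p = 0.00421). ABCA2, an endolysosomal lipid transporter (ENSG00000107331, chr9:137007227-137028922, minus strand), had 120.5, 118, 113 and 117 CPM with PFHxA, against 93.1, 103, 100.1 and 98.1 CPM in control. Its groups did not overlap either (1.19-fold, log2 fold 0.25, SE 0.0428, adjusted p = 0.00277). ABCA7, a phospholipid transporter linked to phagocytosis (ENSG00000064687, chr19:1040101-1065572, plus strand), had 20.4, 17.01, 16.5 and 15.8 CPM with PFHxA, against 14.6, 13.3, 13.4 and 14.1 CPM in control. PFHxA a was the highest of the 4 PFHxA libraries, and the lowest of them still exceeded every control (1.26-fold, log2 fold 0.33, SE 0.0843, adjusted p = 0.0197). The other tested A members, ABCA1, ABCA3 and ABCA5, were not called. Their log2 folds were -0.15 (95% interval -0.48 to 0.18), 0.24 (95% interval -0.20 to 0.69) and -0.54 (95% interval -1.33 to 0.26), intervals that do not exclude a change as large as those called.

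Of the organic anion exporters, ABCC1 (ENSG00000103222, chr16:15949577-16143074, plus strand) had 143, 151, 149.8 and 144 CPM with PFHxA, against 128, 132, 129.7 and 111 CPM in control. Control d was the lowest, and the other controls were also below all PFHxA libraries (1.17-fold, log2 fold 0.23, SE 0.0513, adjusted p = 0.0107). ABCC5 or MRP5, an exporter of cyclic nucleotides (ENSG00000114770, chr3:183919934-184018015, minus strand), had 74.7, 80.6, 81.3 and 86.5 CPM with PFHxA, against 70.3, 68.95, 67.6 and 55.99 CPM in control. Again control d lay lowest and the groups did not overlap (1.23-fold, log2 fold 0.30, SE 0.0666, adjusted p = 0.0103). Without control d, 7 members were called in place of 8, with ABCD4 lost, and the log2 fold over all fits that left out 1 library ran from 0.18 to 0.25 for ABCC1 and from 0.23 to 0.33 for ABCC5. The other tested members of subfamily C, which are not all exporters, were ABCC3, ABCC4, ABCC8, ABCC10 and ABCC11, and they were not called. ABCC11 had 132 counts over the 12 libraries. It overlaps LONP2 on the opposite strand, which had 34680, so reads counted for ABCC11 may be shared with LONP2. ABCC4 (MRP4), which also exports cyclic nucleotides, had a log2 fold of 0.01 (95% interval -0.14 to 0.16).

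In subfamily D the directions differed. ABCD3 (ENSG00000117528, chr1:94418455-94518666, plus strand) had 258, 228, 234 and 233 CPM with PFHxA, against 281, 275, 272 and 288 CPM in control. PFHxA a was the highest of its group, and each PFHxA library was below each control (log2 fold -0.23, SE 0.0412, adjusted p = 0.00379). ABCD4, which helps export cobalamin from lysosomes (ENSG00000119688, chr14:74285423-74303056, minus strand), had 38.02, 40.1, 36.8 and 37.7 CPM with PFHxA, against 32.98, 33.01, 35.04 and 34.7 CPM in control. The groups did not overlap, with the call close to the threshold (1.12-fold, log2 fold 0.17, SE 0.0532, adjusted p = 0.0482). ABCD4 was called in 2 of 12 fits that left out 1 library each and missed the threshold without any PFHxA library, any control library, PFBA a or PFBA d, and when the 8 libraries compared were fitted alone (adjusted p = 0.0610). The other 7 calls held in all 12 such fits. ABCD4 overlaps AC005519.1 on the same strand, which had 229 counts over the 12 libraries.

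ABCE1 (ENSG00000164163, chr4:145097932-145129179, plus strand) had 129, 114, 109 and 114 CPM with PFHxA, against 138, 147, 143 and 139 CPM in control. PFHxA a was again the nearest to control, and no library crossed the other group's range (log2 fold -0.28, SE 0.0533, adjusted p = 0.00455). Reads of ABCE1 may be shared with OTUD4 and ANAPC10, which overlap it on the opposite strand, since the strand setting of the counting is not given. OTUD4 had a log2 fold of 0.02 (adjusted p = 0.827) and ANAPC10 one of -0.45 (adjusted p = 0.00987). The other translation members were not called. ABCF1 had 107, 103, 104 and 111 CPM with PFHxA, against 94.5, 99.2, 101 and 92.2 CPM in control. Its groups did not overlap (1.10-fold, log2 fold 0.13, SE 0.0442, adjusted p = 0.0586), and its log2 fold was 0.07 after correction for GC content and length. ABCF2 and ABCF3 had log2 folds of 0.13 (adjusted p = 0.0940) and 0.08 (adjusted p = 0.229). Of the mitochondrial members, ABCB8 came nearest to the threshold (log2 fold 0.23, adjusted p = 0.0664), with a log2 fold of 0.09 after that correction. Of the 20 tested members not called, 16 had a 95% interval within 2-fold either way and 12 within 1.5-fold.

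**Figure D2:**
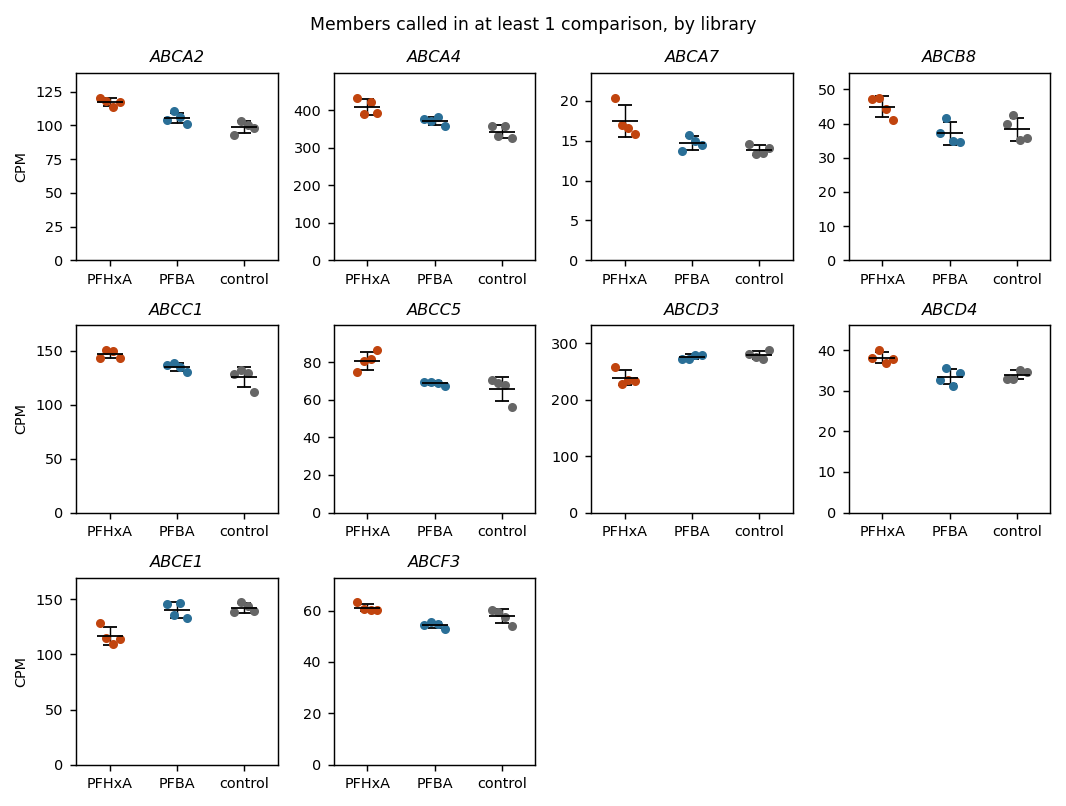
CPM (y axis, from 0) of 10 ABC genes called in at least 1 comparison, by group (x axis); points are libraries, the bar is the mean and the whiskers are the SD (n = 4). ABCD3 and ABCE1 lie lowest with PFHxA, while ABCA2, ABCA4, ABCA7, ABCC1, ABCC5 and ABCD4 lie highest with PFHxA.

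**Figure D3:**
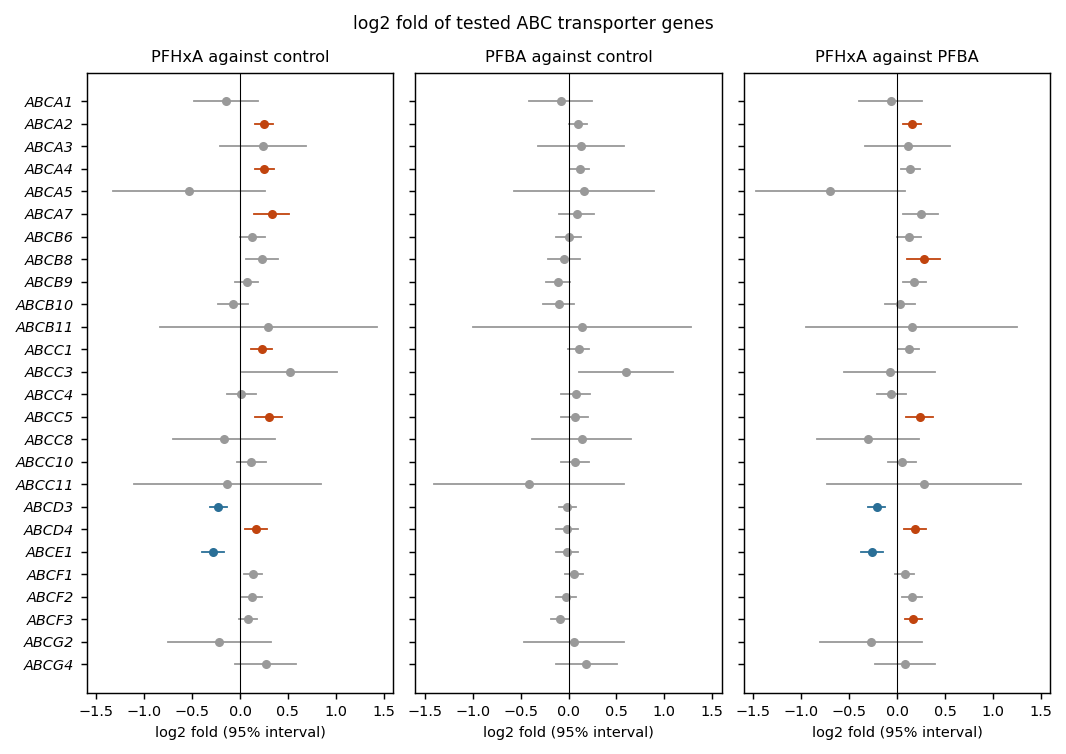
log2 fold (x axis) with its 95% interval for 26 of the 28 tested members (y axis) in the 3 comparisons; orange marks members called higher, blue members called lower and grey those not called. The left panel shows 6 members higher and 2 lower, the middle panel none called, and the right panel ABCD3 and ABCE1 lower.

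The direction of the PFHxA calls went with GC content of the transcript. The 6 members called higher had 50.8% to 64.7% GC in their longest transcript, and the 2 called lower had 37.6% and 38.4%. The 20 members not called had 33.1% to 65.8% GC, with a median of 54.35%, against 53.65% in those called higher. Over the 28 tested members, the median was 52.7% GC, against 48.5% over all tested genes. Across these 28 genes, which share the same libraries, GC content and log2 fold had Pearson and Spearman correlations of 0.69 and 0.55. After correction for GC content and length these correlations were 0.31 and 0.26. All are given as a description. A fit corrected in each library for its trend with transcript GC content and length called 433 genes of all tested, or 2.62%, and 0 of 28 members, with 4 of 28 members at an unadjusted p under 0.05, beside 17.2% of all tested genes. These were ABCA4, ABCC1, ABCC5 and ABCD4. The trend-removed log2 fold was 0.19 (adjusted p = 0.0768) for ABCC5, the smallest p of the family, 0.12 (adjusted p = 0.191) for ABCA4, 0.13 (adjusted p = 0.207) for ABCD4 and 0.08 (adjusted p = 0.283) for ABCC1. For ABCA2 it was 0.04 (adjusted p = 0.615), for ABCA7 0.13 (adjusted p = 0.466), for ABCD3 -0.04 (adjusted p = 0.580) and for ABCE1 -0.10 (adjusted p = 0.345). All 8 kept their sign, with sizes from 0.04 to 0.19. Length was part of that correction too. Per doubling of transcript length, log2 counts shifted by 0.0138 to 0.0251 with PFHxA, -0.0208 to 0.0329 with PFBA and -0.0632 to -0.00899 in control. The tested members had a median longest transcript of 4975 bases, against 3252.5 over all tested genes. The shares of GC content and length in the lost calls were not tested. With 1 exposure per group, differences between libraries linked to GC content or length cannot be told apart from an effect of the acid.

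**Figure D4:**
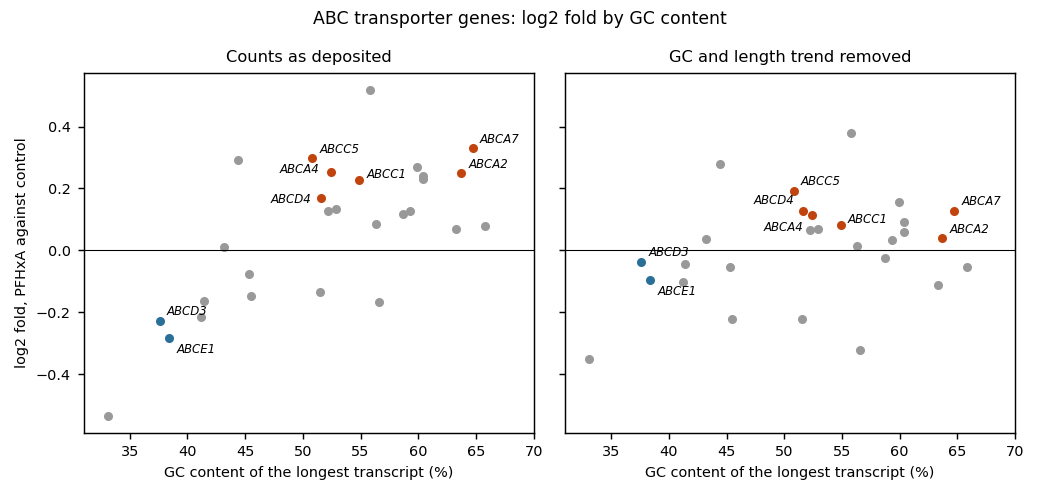
log2 fold of PFHxA against control (y axis) by GC content of the longest transcript (x axis, %) for the 28 tested members, from the counts as deposited (left) and after removing each library's GC and length trend (right); orange marks members called higher and blue members called lower on the counts as deposited. In the left panel ABCD3 and ABCE1, at 37.6% and 38.4% GC, lie below 0, and in the right panel the called members lie within 0.19 of 0.

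After PFBA, against control, no member was called: 0 of 28, beside 0.00604% of all tested genes, which is 1 gene. At an unadjusted p under 0.05 there were 3 members (ABCA2, ABCA4 and ABCC3), against 9.86% of all tested genes. DESeq2, which called 0.266% of all tested genes, and limma-voom also called 0 members. ABCC3 had the smallest p, with 3.19, 3.99, 2.79 and 5.57 CPM with PFBA, against 1.96, 2.33, 2.70 and 3.33 CPM in control. PFBA b and d exceeded all controls and the groups overlapped (1.51-fold, log2 fold 0.60, SE 0.229, adjusted p = 0.427). ABCA4 came next with 377, 371, 381 and 357 CPM with PFBA, against 358, 330.5, 358 and 326 CPM in control. PFBA a, b and c were above every control and PFBA d lay among them (1.08-fold, log2 fold 0.12, SE 0.0471, adjusted p = 0.464). The groups did not overlap for ABCB9, a lysosomal peptide transporter, and ABCG4, a sterol transporter, which is 2 of 28 members, beside 5.96% of all tested genes. ABCB9 overlaps ARL6IP4, AC026362.1 and OGFOD2 on the opposite strand and may share reads with them. These genes had 9903, 695 and 1261 counts over the 12 libraries, against 4238 for ABCB9. Of the 28 members, 25 had a 95% interval within 2-fold either way and 23 within 1.5-fold, so that larger changes of those members lay outside their intervals. For ABCD3 and ABCE1 the intervals were -0.10 to 0.07 and -0.13 to 0.10 on the log2 scale. GC content and log2 fold had a Pearson correlation of 0.046 and a Spearman correlation of 0.033 across the 28 genes in this comparison.

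The acids were compared with each other at the same dose and time. With PFHxA, against PFBA, ABCA2, ABCB8, ABCC5, ABCD4 and ABCF3 were higher, and ABCD3 and ABCE1 were among those lower. In all 8 of 28 tested members were called, 5 higher and 3 lower, beside 10.9% of all tested genes (3.84% higher and 7.07% lower). Groups did not overlap for 13 of 28 members, 7 of them called, beside 20.0% of all tested genes. Across the 28 genes, GC content and log2 fold had Pearson and Spearman correlations of 0.68 and 0.48 in this comparison. After correction for GC content and length these correlations were 0.27 and 0.13. This comparison shares its PFHxA libraries with the one against control, so that each comparison's values are given and no overlap between them is counted. After the same correction for GC content and length, 0 of 28 members and 0.882% of all tested genes passed, with 4 of 28 members (among them ABCB8, ABCC5 and ABCD4) and 13.4% of all tested genes at an unadjusted p under 0.05.

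ABCD3 had 258, 228, 234 and 233 CPM with PFHxA, against 272, 272, 279.6 and 279 CPM with PFBA, with every PFHxA library lower (log2 fold -0.21, SE 0.0412, adjusted p = 0.00667). ABCE1 had 129, 114, 109 and 114 CPM with PFHxA, against 145, 136, 146 and 133 CPM with PFBA, also without overlap (log2 fold -0.26, SE 0.0533, adjusted p = 0.00784). These were the members called in all 12 fits that left out 1 library. The trend-removed log2 fold was -0.01 (adjusted p = 0.913) for ABCD3 and -0.08 (adjusted p = 0.556) for ABCE1.

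Among the members that were higher with PFHxA than with PFBA, ABCB8, part of a mitochondrial potassium channel (ENSG00000197150, chr7:151028422-151047782, plus strand), had 47.1, 47.6, 44.2 and 41.03 CPM with PFHxA, against 37.3, 41.7, 34.96 and 34.6 CPM with PFBA. PFBA b exceeded the lowest PFHxA library, so the groups overlapped (1.21-fold, log2 fold 0.28, SE 0.0784, adjusted p = 0.0381). ABCC5 had 74.7, 80.6, 81.3 and 86.5 CPM with PFHxA, against 69.2, 69.3, 69.1 and 67.04 CPM with PFBA, and the PFBA libraries were tightly grouped below (1.18-fold, log2 fold 0.23, SE 0.0665, adjusted p = 0.0387). ABCA2 had 120.5, 118, 113 and 117 CPM with PFHxA, against 104, 110.3, 106 and 101 CPM with PFBA, without overlap (1.11-fold, log2 fold 0.15, SE 0.0428, adjusted p = 0.0358). ABCD4 had 38.02, 40.1, 36.8 and 37.7 CPM with PFHxA, against 32.7, 35.6, 31.3 and 34.5 CPM with PFBA. These groups did not overlap (1.14-fold, log2 fold 0.19, SE 0.0532, adjusted p = 0.0387). ABCF3 (ENSG00000161204, chr3:184186023-184194012, plus strand) had 63.3, 60.8, 60.2 and 60.4 CPM with PFHxA, against 54.4, 55.5, 54.7 and 52.7 CPM with PFBA, and its control libraries, at 60.1, 59.3, 57.5 and 53.9 CPM, spanned the gap between them (1.13-fold, log2 fold 0.17, SE 0.0434, adjusted p = 0.0231). ABCF3 shares its strand and part of its position with EIF2B5, so its reads may be split. After the correction for GC content and length, the log2 fold was 0.17 (adjusted p = 0.179) for ABCC5, 0.16 (adjusted p = 0.359) for ABCB8, 0.13 (adjusted p = 0.267) for ABCD4, 0.08 (adjusted p = 0.438) for ABCF3 and 0.0087 (adjusted p = 0.947) for ABCA2. Without PFBA a, PFBA c, PFBA d or PFHxA b, only ABCD3 and ABCE1 were called, 2 members in place of 8, and without PFHxA a or PFHxA c the count was 4. Without PFHxA d it was 5. Over all tested genes, 1806 were called, and between 1035 and 1179 without PFHxA b, PFHxA c, PFBA a, PFBA c or PFBA d. For the 20 members not called, 17 had a 95% interval of the difference within 2-fold either way and 15 within 1.5-fold.

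ABCA4 and ABCC1, called against control, were not called between the acids. ABCA4 differed by 0.14 on the log2 scale (95% interval 0.04 to 0.24, adjusted p = 0.0744) and ABCC1 by 0.12 (95% interval 0.01 to 0.23, adjusted p = 0.149). ABCA7 differed by 0.25 (95% interval 0.06 to 0.43, adjusted p = 0.0771). After correction for GC content and length, the log2 fold was 0.05 (adjusted p = 0.685) for ABCA4 and 0.02 (adjusted p = 0.899) for ABCC1. For ABCA7 it was 0.10 (adjusted p = 0.660). In CPM, which is not corrected, all 4 PFHxA libraries exceeded all 4 PFBA libraries for each of these genes. Groups did not overlap for 20.0% of all tested genes. The groups overlapped for ABCC3, with a difference of -0.08 (95% interval -0.56 to 0.40), an interval wide enough to hold a change of either sign.

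Genes that work with these transporters were read from lists, which were chosen with earlier results of these data known. Their counts are therefore a description only. With PFHxA against control, 6.08% of all tested genes were called higher and 8.82% lower. Of 16 tested sterol regulators and efflux partners, 6 were higher and none lower with PFHxA against control, the 3 with the smallest p being SREBF1 (log2 fold 0.29, SE 0.0483, adjusted p = 0.00258) and SREBF2 (log2 fold 0.26, SE 0.0486, adjusted p = 0.00440), regulators of lipid and sterol synthesis, and RXRA, the partner of the liver X receptors (log2 fold 0.18, SE 0.0444, adjusted p = 0.0154). The median log2 fold of that list was 0.06, against -0.0039 over all tested genes, and 0 of its genes were called after correction for GC content and length. Of 12 peroxisomal partners, PEX3, which inserts membrane proteins, and SCP2, a lipid carrier, were lower (log2 fold -0.39, SE 0.0822, adjusted p = 0.00765 and log2 fold -0.42, SE 0.0933, adjusted p = 0.00976) and none was higher. Of 12 genes of ribosome recycling and initiation, which act beside ABCE1, 5 were lower and 1 (GCN1) higher. The 3 with the smallest p were LTN1, the ubiquitin ligase of stalled ribosomes (log2 fold -0.38, SE 0.0438, adjusted p = 0.00113), EIF2S2, a subunit of initiation factor 2 (log2 fold -0.31, SE 0.0661, adjusted p = 0.00834), and HBS1L, a ribosome rescue factor (log2 fold -0.21, SE 0.0470, adjusted p = 0.00929). Of 13 haem and iron-sulphur partners of the mitochondrial members, ISCU, the iron-sulphur scaffold, was lower (log2 fold -0.20, SE 0.0582, adjusted p = 0.0368).

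Of 11 tested regulators of drug efflux genes, AHR, the aryl hydrocarbon receptor (log2 fold 0.67, SE 0.189, adjusted p = 0.0306), and PPARD, a fatty acid receptor (log2 fold 0.23, SE 0.0509, adjusted p = 0.0101), were higher with PFHxA against control and HIF1A was lower. AHR was low in level, at means of 3.09 CPM with PFHxA, 3.43 CPM with PFBA and 1.95 CPM in control. Its log2 fold was 0.82 with PFBA against control (SE 0.187, adjusted p = 0.297) and -0.15 with PFHxA against PFBA (adjusted p = 0.660). The receptors NR1I2 and NR1I3, which drive efflux genes in liver, had 10 and 3 counts over the 12 libraries and were not tested. The P4 flippases, which also move phospholipids, had 1 of 12 higher (ATP11A) and 1 lower. TAP1 and TAP2, ABC peptide transporters whose symbols do not have the form used to pick members, were not called. The counts and sums by subfamily leave them out. With PFHxA against control, EIF2S2 and LTN1 were still called lower and AHR higher after correction for GC content and length. No other gene of the 7 lists was called after it. In the comparison of PFBA with control, 0 of the 78 tested genes of these lists were called by edgeR, with 5 at an unadjusted p under 0.05, beside 9.86% of all tested genes, while DESeq2 called 1 (AHR) and limma-voom 0. With PFHxA against PFBA, 3.84% of all tested genes were called higher and 7.07% lower. Of these lists, 3 sterol genes (SREBF1, SREBF2 and NPC1) and GCN1 were higher, and EIF2S3, LTN1 and PHYH were lower. In addition, 1 regulator and 1 flippase were called in each direction. Only LTN1 was still called in this comparison after correction for GC content and length (log2 fold -0.19, adjusted p = 0.0194).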

How the data were processed

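RNA of 12 libraries was sequenced on an Illumina NovaSeq, per the labels. Reads were aligned by the authors with HISAT2 2.0.4 to GRCh38 (hg38), per the submitters' processing notes. Which program and annotation gave the counts, and with which strand setting, was not given in the sources used here. Deposited values are raw read counts per gene and library. Another 12 columns, of FPKM, were not used, so that levels between genes rest on CPM per kilobase in place of the FPKM first chosen. Column prefixes were taken to mean PFHxA, PFBA and control. Letters a to d are those of the columns and carry no label number.

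Counts were fitted in R 4.3.3 with edgeR 4.0.16 (filterByExpr at its defaults of 10 and 15, TMM scaling, robust quasi-likelihood, group as the only term, all 12 libraries). Each pair of groups was tested two-sided, with Benjamini-Hochberg adjustment over 16554 genes and a threshold of 0.05. The SE is the size of the log2 fold over the root of F. Intervals are at 95%, and CPM rests on TMM-scaled totals. GC content and length came from the longest GENCODE 29 transcript, and positions from the deposited table. The GC and length trend was removed per library by natural splines (5 degrees of freedom) given as offsets. Alternatives also included scaling by RLE or upper quartiles, dropping the filter, tightening it (1 CPM in 4 libraries, mean count 50), fitting the 8 libraries compared, DESeq2 1.42.0, limma-voom 3.58.1 and leaving out each library. The script was tested on simulated data.

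Members and partner lists were chosen with earlier results of these data known. Full values were given for members called in any comparison, and for the 2 with the smallest p where fewer than 2 were called. In each list and comparison up to 3 called genes with the smallest p were named. HIF1A, GCN1 and other genes outside that rule were named after their values were seen. A few genes are counted and not reported by name here.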

Additional observations from a re-analysis of the deposited data

Results flagged for a closer look

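In 3 of the 78 groups of 4 libraries examined (26 tested members in 3 groups), 1 library lay far from the other 3, by Dixon's ratio at its 95% critical value. Chance alone marks about 1 in 20 groups, so 3 of 78 is no more than chance gives. All 3 were PFBA libraries. ABCB10 had 31.3 CPM in PFBA b, against 34.6, 34.5 and 34.8 CPM in the other PFBA libraries. ABCC5 had 67.0 CPM in PFBA d, against 69.2, 69.3 and 69.1 CPM. ABCF2 had 104.6 CPM in PFBA a, against 109, 109 and 109 CPM. ABCC5 is called with PFHxA against PFBA, and without PFBA d its adjusted p was 0.0968.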

How the results depend on the processing

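No called member changed sign under any alternative run. After removal of the GC and length trend, 0 members were called in each of the 3 comparisons, and 433 genes in all for PFHxA against control and 146 for PFHxA against PFBA; all 16 member calls, 8 in each of those comparisons, were lost. Without a filter, 7 and 5 members were called in them, and with the 8 libraries compared 7 and 7, ABCD4 being lost in both (adjusted p = 0.0610 and 0.0634). For PFBA against control, with 1 gene called, the count was 2 without a filter, 2 with the 8 libraries compared, 44 with DESeq2 and 0 with limma-voom; the cause was not tested. Leaving out each library gave 7 to 10 members for PFHxA against control, 2 to 9 for PFHxA against PFBA and 0 to 0 for PFBA against control, and 1523 to 2396, 1035 to 2187 and 0 to 4 genes over all tested. RLE and upper-quartile scaling, the stricter filter, DESeq2 and limma-voom kept all 16 member calls. The 10 highest members by level shared 9 with the 10 highest per kilobase of the union of exons. No paired analysis was possible because the columns carry letters that are not tied to the label numbers. With PFHxA against control, 4 of the 20 members not called (ABCA5, ABCB11, ABCC3 and ABCC11) had an interval reaching past 2-fold; the part of depth in this was not tested.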

Other observations

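ABCA4 and ABCD3, the genes with the highest levels of the family, lie on chromosome 1, 297322 bases apart, with 7 annotated genes between them, of which 3 were tested. ABCA4 was higher and ABCD3 lower with PFHxA than in control. The cluster of ABCA5, ABCA6, ABCA8, ABCA9 and ABCA10 on chromosome 17 held 174, 0, 3, 0 and 2 counts over the 12 libraries, so that ABCA5 was its only tested gene. ABCG5 and ABCG8, the sterol transporters that lie head to head on chromosome 2 and work as a pair, both had no count in any library.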
